A study of Mus musculus with 8 samples.

Results

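A set of 10 transcription factor genes that pattern the nephron were followed in sorted distal convoluted tubules (DCT) of TBC1D4-deficient and wild-type mice. The 10 genes were Irx1, Irx2, Irx3, Pax2, Pax8, Sall3, Emx1, Emx2, Tfap2b and Pou3f3. They were read by 11 of the 23039 probe sets that carry a gene symbol, taking each probe set annotated with exactly 1 symbol. Irx3 had 2 probe sets and each other gene had 1. The set was chosen by the genotype difference of Irx3, among the smallest unadjusted p-values of an earlier pass over these arrays, with other factors of nephron segments added. The genotype difference of Irx3 is therefore a description here, with no test.

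The TBC1D4-deficient group (4 arrays) and the wild-type group (4 arrays) were male C57/Bl6 mice aged 8 weeks. Both groups also carried a transgene that expresses EGFP from the parvalbumin promoter, which is active in the early DCT. A large-particle sorter (COPAS) separated the green tubules, and cDNA labelled from 100 ng of RNA was read on 1-colour arrays. The study looks for compensation in the DCT for the loss of TBC1D4, a Rab GTPase-activating protein of insulin-regulated vesicle traffic. The labels do not say that each sample came from its own animal, so any p-value measures the spread between these samples. Tbc1d4 itself (probe set 10422028) read 4.638 to 6.594 in TBC1D4-deficient arrays, against 95.64 to 122.8 in wild-type arrays, so the labels held. The sorted tissue carried its defining markers. Slc12a3, which encodes the sodium chloride cotransporter that thiazides block, averaged 11.49 ± 0.02 on the log2 scale in TBC1D4-deficient arrays and 11.49 ± 0.05 in wild-type arrays (SD, n = 4 each). All 11 DCT markers measured were brighter in every array than the 95th percentile of 1179 olfactory and vomeronasal receptor probe sets. These receptors have little or no known role in tubules, and the percentile, 2.47 on the log2 scale, is used below as a guide to background. Intensities are the authors' linear values, and log2 values are their logarithms.

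The nephron forms from mesenchyme that becomes epithelial and is then divided along its length into proximal, loop and distal segments. Paired-box factors start and maintain the renal epithelial lineage, and homeobox, POU and AP-2 factors then act in particular segments. In mice, Tfap2b is needed for the differentiation of the DCT and Pou3f3 for the loop of Henle and distal nephron. Iroquois factors mark the middle of the developing nephron, and in frogs irx3 is needed for the intermediate segments of the larval kidney. Many of these factors stay on in adult tubules.

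The stretches before the starts of the Iroquois genes are shown because the largest genotype difference among the 10 genes was that of Irx3. RefSeq start sites were matched by symbol for 8 of the 10 genes, with 10 start sites in all, in the build GRCm38.p6. Each sequence is the 250 bases before the start, read 5′ to 3′ on the gene's strand. Capitals mark a match to the AP-2 motif GCCNNNGGC, the site type bound by TFAP2B.
Irx3 (chr8:91801655-91801904, minus strand): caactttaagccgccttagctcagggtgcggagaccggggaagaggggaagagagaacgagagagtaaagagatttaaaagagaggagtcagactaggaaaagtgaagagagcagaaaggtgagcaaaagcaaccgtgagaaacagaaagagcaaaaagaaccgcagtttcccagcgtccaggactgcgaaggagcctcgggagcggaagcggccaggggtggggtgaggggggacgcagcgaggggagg
Irx2 (chr13:72628570-72628819, plus strand): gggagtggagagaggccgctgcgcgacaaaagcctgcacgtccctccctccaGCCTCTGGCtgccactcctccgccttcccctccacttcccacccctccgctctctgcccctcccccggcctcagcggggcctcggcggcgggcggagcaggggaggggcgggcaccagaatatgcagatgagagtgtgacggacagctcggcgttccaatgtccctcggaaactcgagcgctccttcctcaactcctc
The AP-2 motif is its own reverse complement. It lay in 2 of the 10 stretches, that of Irx2 and 1 of the 3 of Pax2, and in 13.7% of all 32851 stretches of this length. Searched on both strands, the Iroquois motif ACANNTGT, the Pax motif GTCACGC, the homeodomain motif TAATTA and the POU octamer ATGCAAAT lay in 0 of the 10. They lay in 6.31%, 1.78%, 4.84% and 1.60% of all stretches. The stretch of Irx3 is 56% G and C and that of Irx2 68.4%, against a median of 52.4% over all stretches. A match is a run of letters, not a binding site.

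Irx3 was the one gene of the 10 whose groups did not overlap. Its brighter probe set (10580577, chromosome 8) had intensities of 14.14, 17.43, 14.05 and 16.93 in TBC1D4-deficient replicates 1 to 4, against 18.13, 19.11, 24.1 and 24.46 in wild-type replicates 1 to 4. Every TBC1D4-deficient array lay below every wild-type array, with TBC1D4-deficient replicate 2 and wild-type replicate 1 closest to each other. The log2 level averaged 3.96 ± 0.17 in TBC1D4-deficient arrays and 4.41 ± 0.22 in wild-type arrays (SD, n = 4 each). The log2 difference was -0.45 (SE 0.12), a ratio of 0.732. Over all probe sets, 1.85% had groups that did not overlap, and 0.907% did so with the TBC1D4-deficient arrays lower. Since Irx3 was picked for this difference, nothing is read from that comparison. On every array the probe set was above the receptor background, at the 52.1 to 59.3 percentile of the probe sets tested.

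The second probe set of Irx3 had overlapping groups. Probe set 10573903 had intensities of 6.818, 6.162, 7.063 and 7.1 in TBC1D4-deficient replicates 1 to 4, against 4.833, 6.669, 7.832 and 5.918 in wild-type replicates 1 to 4. The wild-type arrays held both the lowest and the highest value. The log2 difference was 0.12 (SE 0.13), opposite in sign to that of the brighter probe set. It was dim, above the receptor background in 7 of 8 arrays. Its identifier lies among those of genes on the opposite strand, as given with the other observations, and the labels and annotation do not state which strand its probes read.

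**Figure D1:**
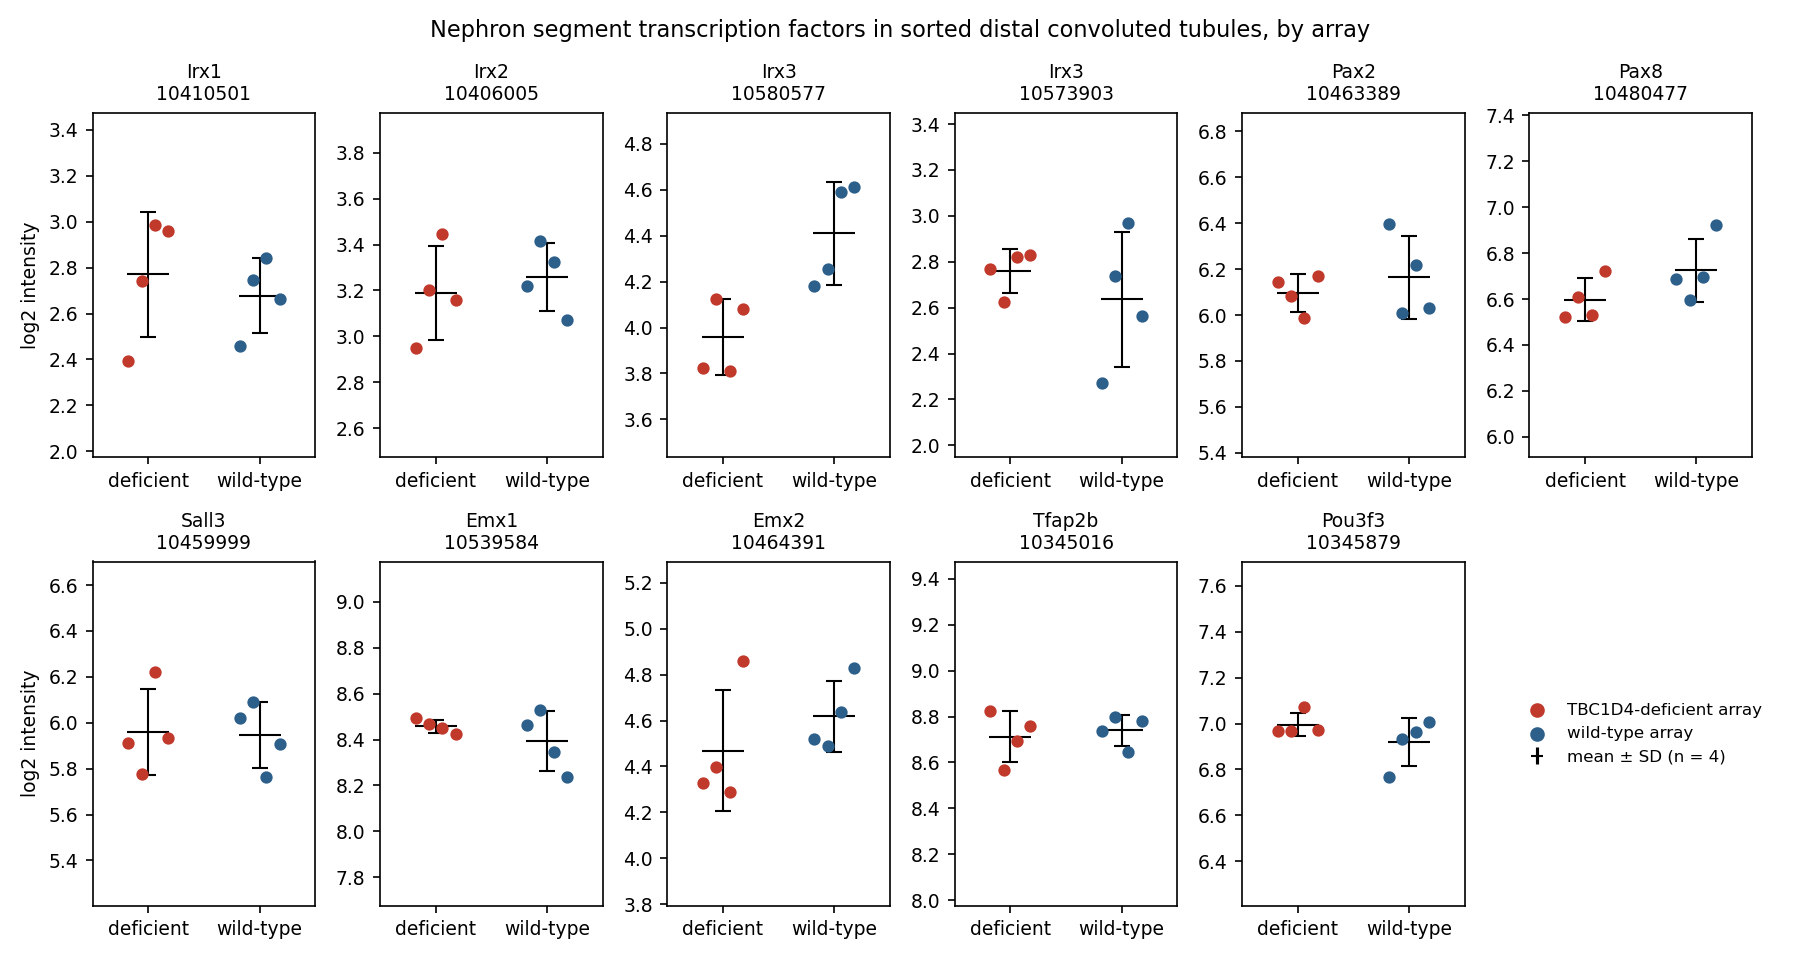
Log2 intensity of each of the 11 probe sets in each array, with TBC1D4-deficient arrays (red) left of wild-type arrays (blue) and the mean ± SD of 4 arrays in black; every panel spans the same range on its vertical axis. Of the 11, the Irx3 probe set 10580577 alone had groups that did not overlap.

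The size of the Irx3 difference varied with the processing. The sample descriptions open with numbers of unstated meaning, and the difference was -0.48 in the arrays with numbers 5 to 8 and -0.42 in those with numbers 9 to 12. Leaving out 1 array at a time gave -0.53 to -0.38. As the groups did not overlap, any such subset of the arrays had to give a value below 0. It was -0.24 with 16 added to each intensity before the logarithm, which compresses the differences of dim probe sets.

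Markers of some other cell types had lower means in TBC1D4-deficient arrays. All 17 proximal tubule markers measured had a lower mean in TBC1D4-deficient arrays, with summed intensities of 1705 to 4164, against 2415 to 5478 in wild-type arrays. All 13 endothelial markers had a lower mean too, with summed intensities of 129.6 to 176.4 in TBC1D4-deficient arrays, against 175.1 to 204.6 in wild-type arrays. None of these 30 markers was called by limma. An unadjusted p below 0.05 was seen for 0 of the 17 proximal and 8 of the 13 endothelial ones. Of all probe sets, 2.9% had an unadjusted p below 0.05. Of the 30, all but 1 endothelial one were above the receptor background in every array. All 11 connecting tubule and principal cell markers also had a lower mean, with summed intensities of 4732 to 4963 in TBC1D4-deficient arrays, against 4942 to 5175 in wild-type arrays, and 0 were called. Of the intercalated cell markers 8 of 10 were below 0 too, as were 7 of 9 of stroma and smooth muscle and 4 of 5 of podocytes. Above 0 were 8 of 10 leukocyte markers and 8 of 11 DCT markers. Only 3 of the 10 leukocyte, 4 of the 9 stroma and smooth muscle and 3 of the 5 podocyte markers exceeded the receptor background in every array. The counts by sign of these 3 lists therefore rest largely on dim probe sets. Thick ascending limb markers were mixed, with 4 above and 5 below 0. The 2 red cell markers measured were Slc4a1 at -0.48, which is also on the intercalated list, and Alas2 at -0.0058. Alas2 was above the receptor background in 1 of 8 arrays. The Irx3 log2 difference was -0.37 (SE 0.08) after adjustment for the mean of the proximal markers. Adjusted for the mean of the endothelial markers, an alternative chosen after seeing the data, it was -0.28 (SE 0.17). In bulk tubules, fewer cells of a type and less RNA per cell cannot be told apart. The part of other cells in the Irx3 difference was not tested further.

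**Figure D2:**
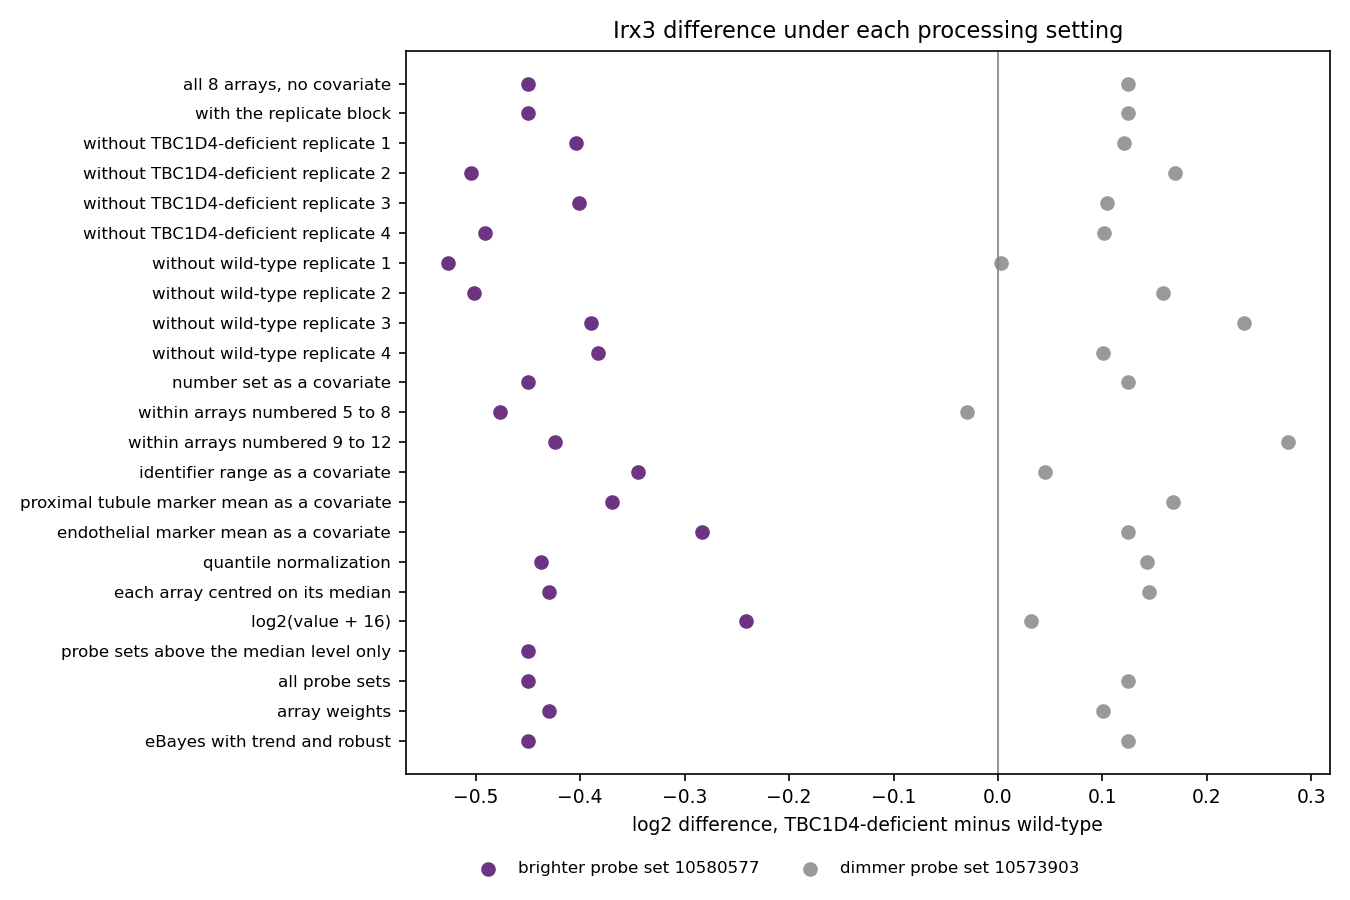
Log2 difference of the 2 Irx3 probe sets (TBC1D4-deficient minus wild-type, horizontal axis) under each processing setting (rows). The brighter probe set lay between -0.53 and -0.24 in all of them, and the dimmer one between -0.03 and 0.28. The brighter one was chosen for its difference and its groups did not overlap. Its sign was therefore fixed in advance wherever arrays were left out or split.

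Irx1 and Irx2, neighbours on chromosome 13, had groups that overlapped. Irx1 (probe set 10410501) had intensities of 5.259, 6.686, 7.93 and 7.772 in TBC1D4-deficient replicates 1 to 4, against 5.498, 6.706, 7.165 and 6.338 in wild-type replicates 1 to 4. It was above the receptor background in 6 of 8 arrays and Irx2 in all 8, and replicate 1 of Irx1 was the lowest of each genotype. Irx2 (10406005) had 7.72, 9.205, 10.91 and 8.922 in TBC1D4-deficient replicates 1 to 4, against 9.327, 10.68, 10.01 and 8.405 in wild-type replicates 1 to 4. The log2 difference was 0.09 for Irx1 (95% interval -0.20 to 0.39) and -0.07 for Irx2 (-0.31 to 0.17). Among the other Iroquois genes, Irx5 and Irx6, which share the Irx3 cluster on chromosome 8, stood at -0.0012 (-0.18 to 0.18) and 0.02 (-0.13 to 0.17). Irx4, of the chromosome 13 cluster, stood at -0.13 (-0.34 to 0.08), and the related homeobox gene Mkx at -0.02 (-0.23 to 0.18). Of these 4 relatives, Irx5 alone was above the receptor background in every array.

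The paired-box factors Pax2 and Pax8, which act together to set up the renal epithelial lineage in mice, were well above background in both genotypes. Pax2 (10463389) had intensities of 70.78, 67.77, 63.46 and 72.06 in TBC1D4-deficient replicates 1 to 4, against 84.3, 64.49, 74.4 and 65.45 in wild-type replicates 1 to 4. The TBC1D4-deficient values lay almost wholly inside the wild-type range. Pax8 (10480477), also the factor of thyroid follicular cells, had 91.95, 97.69, 92.39 and 105.7 in TBC1D4-deficient replicates 1 to 4. Its wild-type values were 103, 96.81, 103.6 and 121.2. Wild-type replicate 4 was the highest, and the groups overlapped. The log2 difference was -0.07 for Pax2 (-0.27 to 0.14) and -0.13 for Pax8 (-0.31 to 0.05). The 7 other Pax genes measured stood between -0.08 and 0.08, and of them Pax5, a B cell factor, and Pax9, a factor of tooth and pharyngeal pouch development, were above the receptor background in every array.

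The factors tied to the distal nephron were read well above background. Tfap2b (10345016), the AP-2 factor whose loss in mice leads to cystic kidneys, had intensities of 453.8, 379, 414.5 and 433.5 in TBC1D4-deficient replicates 1 to 4, against 426.5, 444.6, 400.7 and 439.2 in wild-type replicates 1 to 4. It lay at the 96.0 to 96.8 percentile of the probe sets tested. Emx1 (10539584), a homeobox gene best known from the forebrain, had 360.1, 353.9, 349.8 and 343.8 in TBC1D4-deficient replicates 1 to 4, against 352.8, 369.2, 325.7 and 301.5 in wild-type replicates 1 to 4. It lay at the 94.6 to 95.8 percentile. Pou3f3 (10345879), also called Brn1, had 125.1, 125.2, 134.4 and 125.6 in TBC1D4-deficient replicates 1 to 4, against 109, 122.3, 124.7 and 128.7 in wild-type replicates 1 to 4. In all 3 the groups overlapped. Brightness also depends on the probes, so the order of these percentiles is not an order of transcript amounts.

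For these 3 genes the 95% interval of the genotype difference held 0. The log2 difference was -0.03 for Tfap2b (-0.19 to 0.13), 0.07 for Emx1 (-0.09 to 0.23) and 0.08 for Pou3f3 (-0.07 to 0.23). The relatives of Tfap2b stood between -0.08 and 0.03, and of them Tfap2a and Tfap2e were above the receptor background in every array. Tfap2a averaged 6.20 on the log2 scale in TBC1D4-deficient arrays and 6.16 in wild-type arrays. Among the relatives of Pou3f3, Pou3f1 alone was above that background in every array, and the 3 stood between -0.12 and 0.01.

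Emx2 and Sall3 varied more between arrays of 1 genotype than Tfap2b, Emx1 and Pou3f3 did. Emx2 (10464391), which mice need to form kidneys and genital tract, had intensities of 20.07, 21.1, 19.56 and 28.99 in TBC1D4-deficient replicates 1 to 4, against 22.91, 22.48, 24.85 and 28.38 in wild-type replicates 1 to 4. TBC1D4-deficient replicate 4 stood above all other arrays, while the 3 others of its group were below all wild-type arrays. The log2 difference was -0.15 (-0.43 to 0.13), and -0.31 within the arrays numbered 9 to 12 against 0.01 within those numbered 5 to 8. Without TBC1D4-deficient replicate 4 it was -0.28 (-0.48 to -0.07), and it did not pass the limma adjusted p there. A test of the change between number sets gave a limma adjusted p of 0.999. Sall3 (10459999), a spalt-like zinc finger factor, had 60.12, 54.79, 74.66 and 61.2 in TBC1D4-deficient replicates 1 to 4, against 64.99, 68.08, 54.25 and 60 in wild-type replicates 1 to 4. TBC1D4-deficient replicate 3 was the highest and the groups overlapped, with a log2 difference of 0.02 (-0.22 to 0.25). Its relative Sall1, which nephron progenitors need, averaged 5.45 on the log2 scale in TBC1D4-deficient arrays and 5.40 in wild-type arrays. Sall2 was at or below the receptor background in every array and Sall4 above it in 1.

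**Figure D3:**
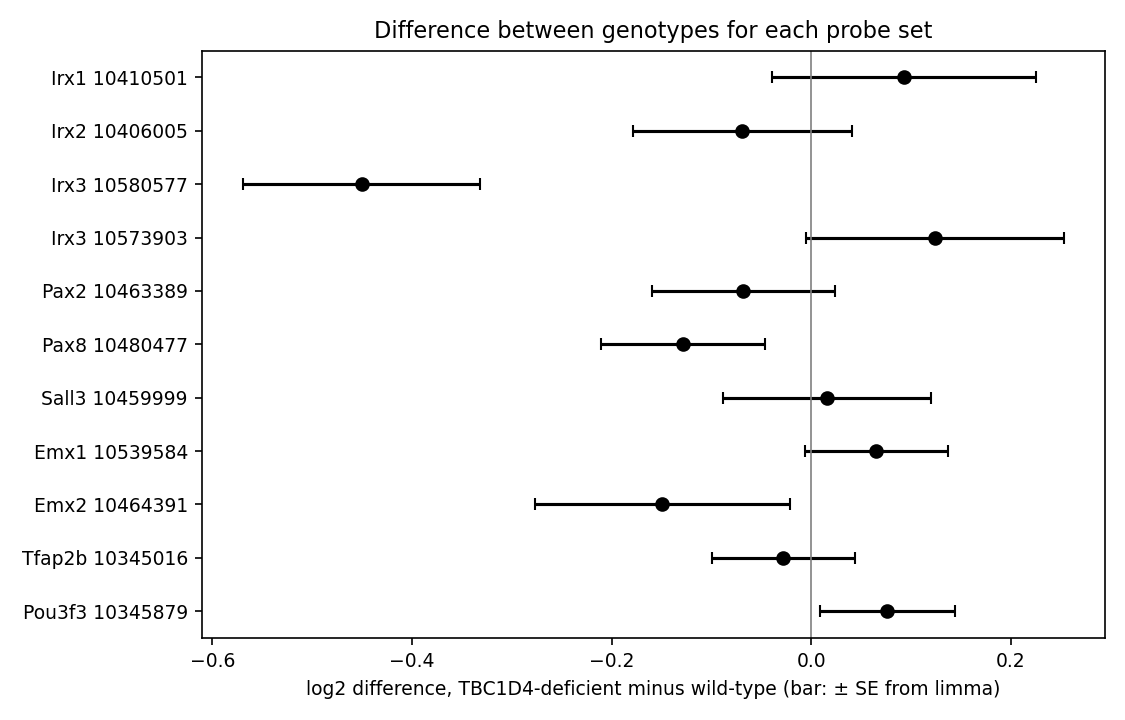
Log2 difference (TBC1D4-deficient minus wild-type, horizontal axis) of each of the 11 probe sets, with bars of ± 1 SE from the limma fit. Every probe set other than Irx3 10580577 lay between -0.15 and 0.12.

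Of the 9 probe sets of the genes other than Irx3, 0 passed a limma adjusted p of 0.05, with 0.00434% called among all 23039 probe sets, the single call being Tbc1d4. The limma adjusted p was 0.9999 for each of the 9. An unadjusted p below 0.05 was seen for 0 of the 9, against 2.9% of all probe sets. Groups that did not overlap were seen for 0 of the 9, against 1.85% of all probe sets. With shares this low, counts of 0 among 9 say little about these genes. Their 95% intervals all lay inside 1.5-fold, as did those of 97.4% of all probe sets. The widest bounds were -0.43 and 0.39 on the log2 scale, ratios of 0.741 and 1.31, so changes of that size remain possible. Of the 11 differences 5 were above and 6 below 0, with a median of -0.03 against -0.0017 over all probe sets. The SD within a genotype was 0.08 (Pou3f3) to 0.22 (Irx1), against a median of 0.12 over all probe sets.

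Other transcription factors of the nephron stood between -0.38 and 0.30. Of 74 listed, 70 were measured, with 23 above and 47 below 0 and a median log2 difference of -0.03. None was called (limma), against 0.00434% of all probe sets, and 2 of the 70 had an unadjusted p below 0.05, against 2.9%. The 95% interval lay inside 1.5-fold for 64, against 97.4% of all probe sets. In 2 of the 70, Hoxa11 and Zfhx3, the groups did not overlap, with TBC1D4-deficient arrays lower. Over all probe sets 1.85% had groups that did not overlap. The 4 with the smallest p were Hoxa11, a patterning gene of the kidney rudiment, at -0.16 (-0.29 to -0.03), Zfhx3, a large homeobox protein, at -0.19 (-0.34 to -0.03), Dmrt2, a factor found in intercalated cells, at -0.30 (-0.60 to 0.0066), and Tcf21, a factor of stroma and podocytes, at -0.19 (-0.43 to 0.04). Hoxa11 and Tcf21 were at or below the receptor background in every array, and 54 of the 70 were above it in every array. Of the genes around Irx3 on chromosome 8, 10 were measured, and 4 stood above and 6 below 0, between -0.10 and 0.12, all inside 1.5-fold and 0 called. The 4 with the smallest p were Rpgrip1l, a gene of the ciliary transition zone, at 0.12 (-0.07 to 0.32), Capns2 at -0.10 (-0.29 to 0.09), Fto, an RNA demethylase whose introns hold enhancers of Irx3, at 0.06 (-0.07 to 0.20), and Lpcat2 at -0.06 (-0.22 to 0.10). Capns2 and Lpcat2 were at or below the receptor background in every array, and 5 of the 10 neighbours were above it in every array.

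Levels of the proximal tubule markers varied between arrays, and the factors were set against them. The proximal tubule marker mean, centred over the arrays, was -1.05, 0.22, 0.09 and 0.12 in TBC1D4-deficient replicates 1 to 4, and -0.56, -0.27, 0.72 and 0.73 in wild-type replicates 1 to 4. Emx1 was lowest in the 2 arrays with the highest marker mean, wild-type replicates 3 and 4. Its Pearson r was -0.76 (exact permutation p = 0.027, adjusted p = 0.233 over the 10 genes) and its Spearman rho -0.76 (exact permutation p = 0.0368, adjusted p = 0.229). Without the 2 arrays farthest from the median marker mean, replicate 1 of each genotype, r was -0.92. Irx3 ran the other way and was highest in wild-type replicates 3 and 4. Over the 8 arrays its r was 0.70 and its rho 0.57, values that hold its genotype difference and carry no test. The adjustment over the 10 genes still counts Irx3, which can lower the adjusted p of the others. For the deviations from the genotype means, which leave that difference out, r was 0.84 for Irx3 (exact permutation p = 0.0399, adjusted p = 0.208 over the 10 genes) and -0.74 for Emx1 (exact permutation p = 0.0608, adjusted p = 0.208). Pax8 had r of 0.63 (exact permutation p = 0.0932, adjusted p = 0.233) and rho of 0.74 (exact permutation p = 0.0458, adjusted p = 0.229), and r of 0.70 without the 2 arrays. Tfap2b had r of -0.49 (exact permutation p = 0.212, adjusted p = 0.353) and rho of -0.48 (exact permutation p = 0.243, adjusted p = 0.382), and r of -0.24 without the 2 arrays. Of the 9 genes other than Irx3, 0 passed after adjustment over the 8 arrays, and for the deviations from the genotype means 0 of the 10 passed. The number sets hold 4 arrays each, too few for a value within them.

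**Figure D4:**
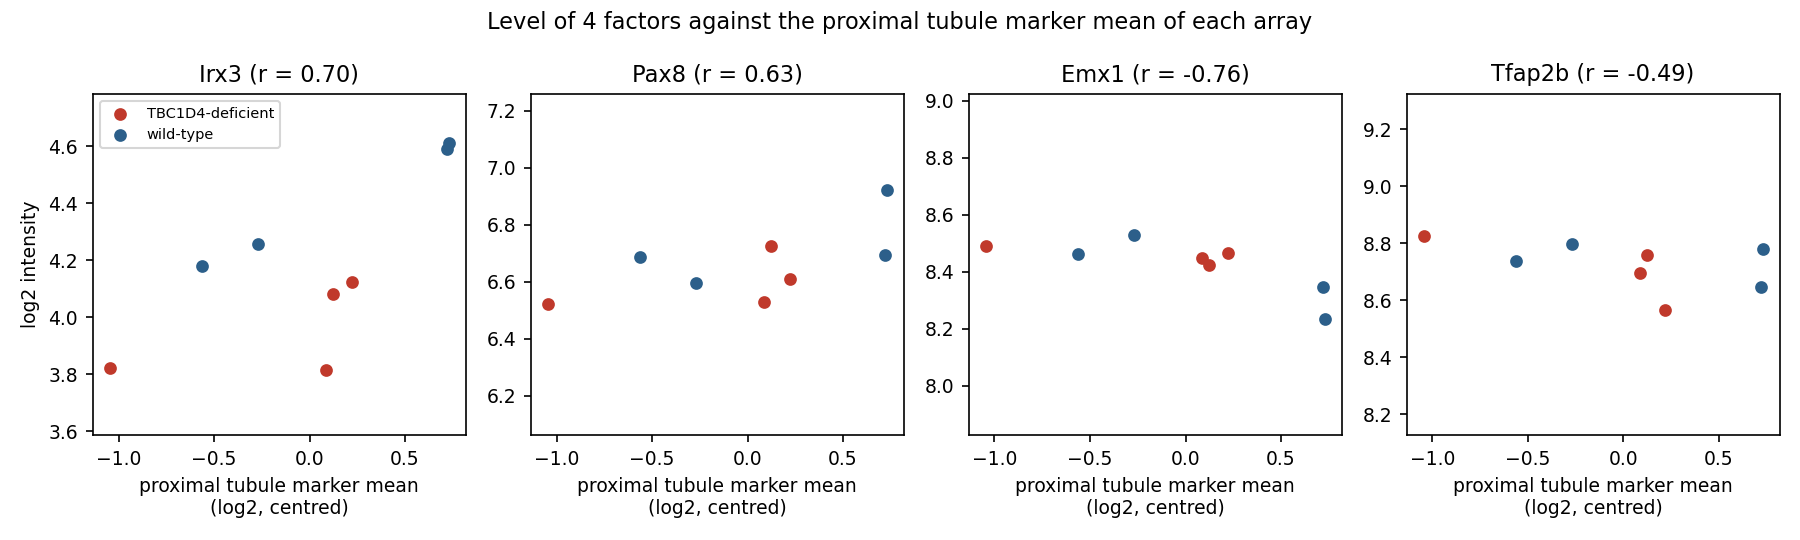
Log2 intensity of Irx3 (probe set 10580577), Pax8, Emx1 and Tfap2b (vertical axes, all spanning the same range) against the centred proximal tubule marker mean of each array (horizontal axis), with TBC1D4-deficient arrays in red and wild-type arrays in blue. Irx3 was highest, and Emx1 lowest, in the 2 wild-type arrays at 0.72 and 0.73.

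Among themselves the 10 genes gave 45 pairs, 23 with a positive and 22 with a negative r over the 8 arrays. Pax8 and Emx2 varied most alike, with r of 0.88 (exact permutation p = 0.000893, adjusted p = 0.0402 over 45 pairs) and rho of 0.93 (exact permutation p = 0.00223, adjusted p = 0.1). Their r was 0.89 without the 2 arrays farthest from the median of Pax8, and 0.86 for the deviations from the genotype means. Pearson's r of this pair passed the adjustment and its Spearman rho did not. Pax8 and Emx1 ran opposite, with r of -0.86 (exact permutation p = 0.0117, adjusted p = 0.21) and rho of -0.79 (exact permutation p = 0.0279, adjusted p = 0.628), and r of -0.50 without 2 arrays. All 10 genes share the 8 arrays and the makeup of their tubules.

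The 5 genes whose levels most resembled Irx3 (10580577) over the 8 arrays were taken from 10235 genes above the median level. They were Itpripl1 (r = 0.96, rho = 0.90), Rps15, a ribosomal protein (0.96 and 0.98), Cyb5r3, a cytochrome b5 reductase (0.93 and 0.93), Tdrp (0.92 and 0.74) and Upb1, a pyrimidine breakdown enzyme (0.91 and 0.74). As the highest of so many they carry no p. Without the 2 arrays farthest from the median of Irx3, r was 0.85, 0.93, 0.82, 0.76 and 0.71 in that order. The values over the 8 arrays hold the genotype difference of Irx3, and all 5 genes had a lower mean in TBC1D4-deficient arrays. For the deviations from the genotype means, r was 0.90, 0.88, 0.89, 0.93 and 0.95 in the same order.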

How the data were processed

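RNA of sorted DCT from 8 samples was read on Affymetrix arrays of 1 colour, with 1 array for each sample, and titles gave the groups. The values that the authors deposited are intensities per probe set, not logarithms. The submitters' processing notes name Affymetrix Power Tools, with no version, and neither the summarisation nor the normalization is stated. Array medians were 8.41 to 9.03, and any scaling of the arrays to each other would mask a shift common to most genes. Detection calls were not part of the table, and precision is limited by having 4 arrays per group.

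Log2 was taken with no pseudocount and no filter. The comparison by genotype used lmFit and eBayes (limma 3.58.1, R 4.3.3, 2-sided) on the 23039 probe sets that have a symbol, adjusted by Benjamini-Hochberg, with 0.05 as the threshold. Intervals are 95% intervals of that fit. Its calls and mean estimate were tested on simulated data with independent normal noise, and the coverage of the intervals was not tested. Gene names come from the platform annotation, and only probe sets with 1 symbol (21158) were named, each gene outside the set by its brightest one. Correlations over the 8 arrays used exact 2-sided permutation of all of them (NumPy 2.4.6, with ranks from SciPy 1.17.1). For the deviations from the genotype means, arrays were permuted only within their genotype. Without 2 arrays, the 6 left were permuted. Chromosomes and upstream sequences come from RefSeq (GRCm38.p6).

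The members, lists and tests were chosen with earlier results of these data known. Named besides the members were all family relatives, the 4 genes of smallest p in each wider list, and the 5 most like Irx3. Alternatives were other scalings, filters, covariates and priors, a replicate block, and leaving out each array.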

Additional observations from a re-analysis of the deposited data

Results flagged for a closer look

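Pou3f3 in the TBC1D4-deficient arrays had 1 array far from the other 3. Replicate 3 read 134.4, against 125.1 to 125.6 in the others, and the gap was 0.944 of the whole range on the log2 scale. The 4 arrays span a narrow range, with an SD of 0.05. Of 22 groups examined 1 stood out this way, and chance gives about 1 in 20.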

How the results depend on the processing

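In every alternative run, 0 of the 9 member probe sets other than those of Irx3 and 1 probe set in all (Tbc1d4) passed at an adjusted p of 0.05, as they did at 0.10 with all 8 arrays. The count of all probe sets whose groups do not overlap was 426. It was 854 to 1168 when 1 array was left out, 7408 and 6811 within the arrays numbered 5 to 8 and 9 to 12, and 208 among probe sets above the median level, as smaller groups overlap less often and fewer probe sets were counted. Among the 11 member probe sets that count was 1. It was 1 to 2 when 1 array was left out (2 without TBC1D4-deficient replicate 4 or wild-type replicate 4), and 3 and 5 within the 2 number sets. With replicate numbers as a block, 1 probe set and 0 of those 9 passed, and 1 of the 11 did not overlap. Same-numbered arrays correlated at 0.40, -0.19, 0.04 and 0.01 in their deviations from the group means. Pairs with unequal numbers ran from -0.39 to 0.22, so the value for replicate 1 was the highest of all. Whether same-numbered arrays share more than a number was not tested. The Irx3 log2 difference ranged from -0.53 to -0.24. The differences of Irx1 and Tfap2b moved by over 1 SD with the endothelial marker mean as a covariate, an alternative chosen after seeing the data, to 0.37 and -0.16. That mean is nearly aligned with genotype. With the range of the second number in the descriptions as a covariate, which is uneven between genotypes, Irx3 stood at -0.34. Over the 8 arrays, r with the proximal tubule markers was 0.64 for Irx1, 0.28 for Irx2 and -0.28 for Pax2. Without the 2 arrays farthest from the median marker mean it turned to -0.27, -0.54 and 0.45, so no direction is read for these 3 genes. In every setting 0 of the 9 genes other than Irx3 passed. The probe sets of Irx1, Irx4, Irx6, Mkx and the second of Irx3 were not above the receptor background in every array, and near background a change would be understated.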

Other observations

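The 2 probe sets annotated to Irx3 lie far apart in the order of probe set identifiers, and that order mostly follows chromosome and strand. Among the 30 identifiers on either side of the brighter one (10580577), 35 had a gene on chromosome 8 with a strand in RefSeq, and 34 of these were on the minus strand, the strand of Irx3. Around the dimmer one (10573903), 34 of 36 were on the plus strand. For the other member genes with a strand in RefSeq, most neighbours were on the gene's own strand, between 29 of 29 for Pou3f3 and 21 of 30 for Emx2. RefSeq also lists Irx3os, a noncoding RNA that starts near Irx3 on the plus strand. Which transcript probe set 10573903 reads was not tested.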
